A study of Homo sapiens with 18 samples.

Results

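The BCL2 family sets the threshold for apoptosis at the mitochondrial outer membrane, and 10 of its genes were followed here through a response to cytarabine. The guardians BCL2, BCL2L1, BCL2L2 and MCL1 hold the effectors BAX and BAK1 in check, and the BH3-only proteins BBC3, PMAIP1, BCL2L11 and BID bind the guardians or activate the effectors. Once BAX or BAK1 forms pores, cytochrome c leaves the mitochondria and the apoptosome activates caspases. BBC3, PMAIP1 and BAX are known to be induced by DNA damage in many cells, while MCL1 has a short-lived mRNA and protein. The genes were taken by symbol from the deposited table, in which all 10 were found among 25296 genes, and all 10 passed the filter on low counts that left 18226 tested genes.

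The study asked how mutant DNMT3A, a DNA methyltransferase, changes the response of U2OS cells to cytarabine. U2OS is an established human osteosarcoma line. The 3 derived lines overexpressed wild-type DNMT3A (WT), mutant DNMT3A (MUT) or nothing from the empty retroviral vector MigR1 (EV), and each was sampled untreated (the series text says vehicle) and after 24 h in 10 µM cytarabine, a cytidine analogue that stalls replication, in 3 biological replicates. The mutation is R882C in the series text and R882H in the sample labels, so that line is named only as mutant, and the labels do not say whether a line was a clone or a pool.

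The 18 libraries held 15.4 to 21.9 M estimated counts. DNMT3A, which checks the labels, separated the lines in every library, at 26.2 to 49.6 CPM in EV, 129 to 182 CPM in WT and 254 to 615 CPM in MUT, where CPM is the count scaled to a common library size. Of 6 mesenchymal and osteoblast markers SPARC and VIM were abundant, COL1A1 lay between 63.4 and 271 CPM in group means, RUNX2 between 36.0 and 49.8 CPM, and ALPL (at most 12.7 CPM) and COL1A2 (at most 7.97 CPM) were low. The markers of other cell types were low too, with group means up to 3.81 CPM for EPCAM, 1.06 CPM for PTPRC and 0.243 CPM for PECAM1. In the EV and MUT libraries EPCAM (2.58 to 4.01 CPM) lay above COL1A2 (0.292 to 2.39 CPM). Replicates 2 and 3 of untreated MUT stood apart from the rest. Over 10865 genes the SD of their log2 deviation from the group mean was 0.221 and 0.239, against 0.0740 to 0.151 in the other 16 libraries, and long genes were high against short ones in replicate 2 (0.203 on the log2 scale) and low in replicate 3 (-0.285). The common biological coefficient of variation was 0.216 in untreated MUT, 0.133 in treated EV and 0.0398 to 0.0696 in the other groups.

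Promoters are shown because DNMT3A methylates CG dinucleotides, which are printed in capitals. No methylation was measured in these libraries. The stretches run from 250 bases before to 50 bases after the first-listed start of each gene in RefSeq (GRCh38.p14), 5′ to 3′ on the gene's strand. BCL2L1, BCL2 and BCL2L11 are shown for RNA levels that differed between lines in the results that follow, and PMAIP1 has the most CG pairs. Entries were found for 8 members, and MCL1 and BCL2L2 had none.
BCL2L1 (chr20:31723914-31724213, minus strand): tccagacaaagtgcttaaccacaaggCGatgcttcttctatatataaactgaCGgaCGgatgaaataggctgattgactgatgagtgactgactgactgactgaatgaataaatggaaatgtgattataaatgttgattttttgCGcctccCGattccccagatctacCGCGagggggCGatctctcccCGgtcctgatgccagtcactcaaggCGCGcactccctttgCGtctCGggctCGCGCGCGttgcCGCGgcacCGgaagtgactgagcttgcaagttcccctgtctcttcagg
BCL2 (chr18:63319720-63320019, minus strand): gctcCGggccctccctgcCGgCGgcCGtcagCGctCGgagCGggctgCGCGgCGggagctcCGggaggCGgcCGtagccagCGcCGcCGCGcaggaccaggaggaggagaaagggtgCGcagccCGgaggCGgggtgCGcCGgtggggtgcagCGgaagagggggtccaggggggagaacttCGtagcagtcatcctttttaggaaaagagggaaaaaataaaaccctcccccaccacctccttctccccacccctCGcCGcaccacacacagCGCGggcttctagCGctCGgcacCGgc
BCL2L11 (chr2:111120664-111120963, plus strand): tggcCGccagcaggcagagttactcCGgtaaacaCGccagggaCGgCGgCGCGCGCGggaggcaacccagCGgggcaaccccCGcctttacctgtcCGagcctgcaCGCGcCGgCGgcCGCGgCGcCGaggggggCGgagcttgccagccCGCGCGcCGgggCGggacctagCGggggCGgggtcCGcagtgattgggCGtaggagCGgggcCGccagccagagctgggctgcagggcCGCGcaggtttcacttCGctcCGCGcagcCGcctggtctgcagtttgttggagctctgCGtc
PMAIP1 (chr18:59899746-59900045, plus strand): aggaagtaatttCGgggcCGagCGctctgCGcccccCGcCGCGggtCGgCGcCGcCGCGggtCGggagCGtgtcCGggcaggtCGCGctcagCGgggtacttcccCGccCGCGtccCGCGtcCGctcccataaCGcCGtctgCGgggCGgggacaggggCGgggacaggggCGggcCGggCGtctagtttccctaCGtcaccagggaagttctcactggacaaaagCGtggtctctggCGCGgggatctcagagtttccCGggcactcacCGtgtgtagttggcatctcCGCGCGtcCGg

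The printed windows held 20 CG pairs in BCL2L1, 31 in BCL2, 39 in BCL2L11 and 42 in PMAIP1, against a median of 14 over the 35116 promoters of the same length. The other members with an entry held 38 (BAX), 37 (BID), 7 (BAK1) and 5 (BBC3), for the first-listed start only. Members that differed between lines and members that did not were both found among the CG-rich windows. The cyclic AMP response element TGACGTCA, a palindrome that reads the same on both strands, was in none of the 8 windows and in 1.85% of all promoters. This says only that these letters are not in those windows.

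Per kb of exon, the members differed widely in level. Averaged over all libraries BAX was highest at 79.5 CPM per kb, followed by BCL2L1 at 75.0, PMAIP1 at 55.3, MCL1 at 52.4 and BAK1 at 30.9. BBC3 (12.4), BCL2L2 (9.41), BID (6.21), BCL2L11 (4.07) and BCL2 (1.59 CPM per kb) were lower. Exon length here is that of all annotated exons merged, and this order depends on it. Without the length MCL1 was highest (mean log2 CPM 8.34), followed by BCL2L1 (8.26) and BAX (7.67), and BCL2 was lowest (4.31). BCL2L1 and MCL1 were thus the abundant guardian RNAs of these cells, and BCL2 itself the scarcest member. All the same the scarcest member still had 242 to 594 counts per library, and BCL2L1 had 3521 to 9451. Between group means BCL2L1 spanned 1.95-fold, BCL2 1.75-fold, BCL2L11 1.53-fold, MCL1 1.39-fold and BID 1.32-fold. The other 5 members spanned 1.10- to 1.25-fold.

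**Figure D1:**
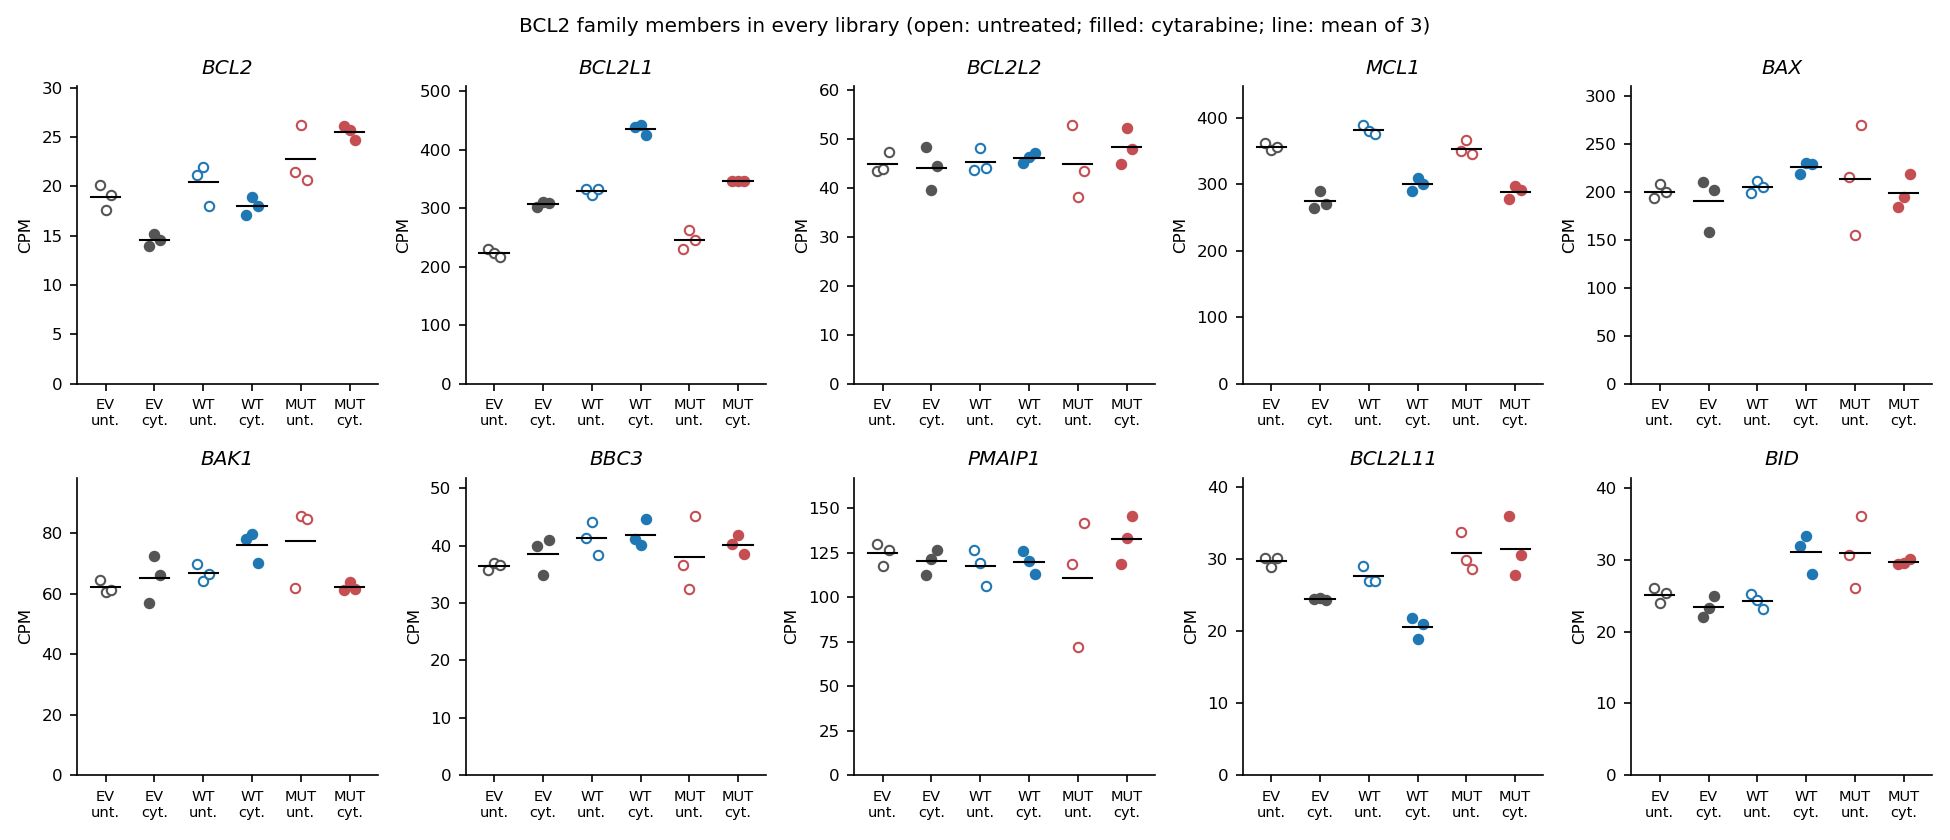
Level of each member in CPM (vertical axis, from 0) in the 18 libraries, by line and treatment (unt., untreated; cyt., cytarabine); open points are untreated, filled points treated, and the bar is the mean of 3. BCL2L1 separates all 6 groups, MCL1 drops in every line, and BAX, PMAIP1 and BBC3 scatter most in untreated MUT.

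Cytarabine moved the 2 abundant guardians in opposite directions in every line. BCL2L1, which encodes the guardian BCL-XL, rose, and MCL1, which encodes the short-lived guardian, fell. Tests were edgeR quasi-likelihood F tests adjusted over all tested genes, with an adjusted p under 0.05 as the threshold. Values given 3 at a time for the drug are in the order EV, WT, MUT. Of the 10 members 4 passed in EV (1 up, 3 down), 4 in WT (2 up, 2 down) and 3 in MUT (1 up, 2 down). Over all tested genes 26.1% rose and 22.9% fell in EV, 26.3% and 22.7% in WT, and 30.4% and 25.9% in MUT. The share of members that moved was below that of all genes in each line, most so in MUT, on 10 genes and with no test. Median log2 fold changes of the members were -0.06, 0.03 and 0.05 in EV, WT and MUT, beside 0.05, 0.03 and 0.05 over all genes. RNA from whole cultures does not tell a lower RNA level per cell from fewer cells that carry it.

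BCL2L1 (chromosome 20, 31664452 to 31723990, minus strand) gave 230.0, 223 and 216 CPM in the untreated EV replicates and 302, 311 and 308 CPM after cytarabine. WT libraries held 334, 323 and 333 CPM, then 438, 443 and 425 CPM. MUT libraries held 231, 263 and 245 CPM untreated and 347 CPM in each treated replicate. Every treated library lay above every untreated library of its line. The log2 fold changes were 0.46 (SE 0.0574) in EV, 0.40 (SE 0.0571) in WT and 0.49 (SE 0.0573) in MUT, with adjusted p of 2.09e-06, 9.95e-06 and 5.95e-07 in edgeR. These are 1.38-, 1.32- and 1.41-fold rises, and all 14 alternative settings for each line called them. The gene also yields the shorter, pro-apoptotic BCL-XS by splicing, which a count per gene does not separate.

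MCL1 (chromosome 1, 150574551 to 150579739, minus strand) gave 362, 351 and 356 CPM in untreated EV and 264, 290.4 and 269.8 CPM after cytarabine. Untreated WT held 389, 379 and 376 CPM against 290.1, 310.0 and 301 CPM under the drug. Untreated MUT held 349.8, 366 and 345 CPM against 278, 297 and 292 CPM. No treated library reached any untreated library of its line. The log2 fold changes were -0.38 (SE 0.0574), -0.35 (SE 0.0573) and -0.29 (SE 0.0573) in EV, WT and MUT, with adjusted p of 2.29e-05, 5.48e-05 and 2.49e-04 in edgeR. These are 1.30-, 1.27- and 1.22-fold lower levels, called under all 14 alternative settings in each line.

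With the 2 genes moving apart, the ratio of BCL2L1 to MCL1 per kb of exon rose in every line. This ratio was formed after the values of both genes had been seen and is given without a test. Its level depends on the merged exon lengths, and its fold change between treatments does not. It was 0.929 in untreated EV and 1.66 in treated EV. It was 1.28 and 2.15 in WT, and 1.03 and 1.78 in MUT (means of 3). The treated libraries ran from 1.59 to 2.24 and the untreated from 0.901 to 1.31, so the 9 treated libraries all lay above the 9 untreated ones. The sum of the 4 guardians per kb changed far less, from 121 ± 1.98 to 128 ± 2.36 CPM per kb in EV, from 151 ± 1.69 to 163 ± 3.04 in WT and from 127 ± 4.26 to 141 ± 2.45 in MUT (SD, n = 3).

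**Figure D2:**
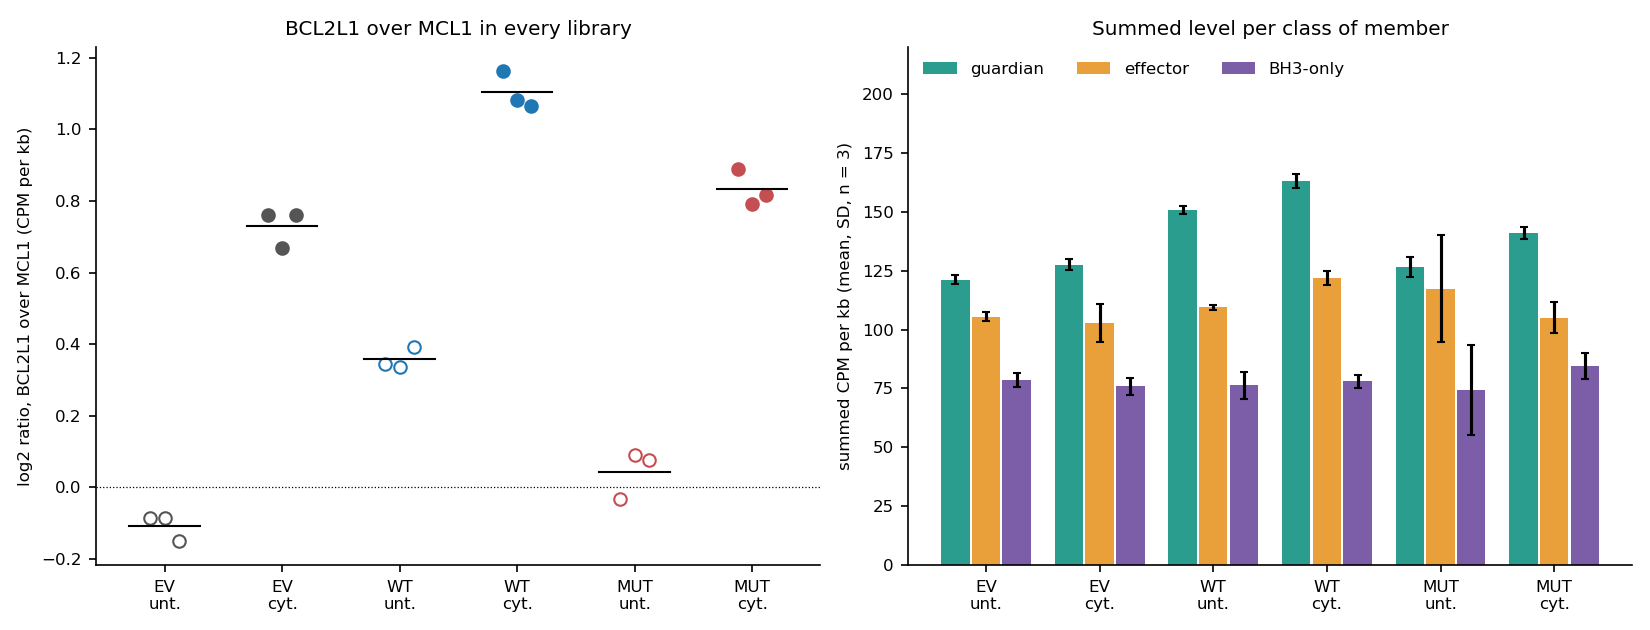
Left, log2 ratio of BCL2L1 to MCL1 per kb of exon in every library, with group means as bars; right, summed level of each class in CPM per kb (mean and SD, n = 3; axis from 0). The treated libraries lie between 0.67 and 1.16 and the untreated between -0.15 and 0.39 on the log2 scale, and the mean sums of guardians, effectors and BH3-only genes come in that order in every group.

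BCL2 (chromosome 18, 63123346 to 63320129, minus strand), the founding guardian, fell in EV only among the 3 lines by test. In EV its libraries gave 20.2, 17.6 and 19.1 CPM, then 14.0, 15.1 and 14.5 CPM without overlap. In WT the libraries overlapped, at 21.2, 22.0 and 18.04 CPM untreated and 17.1, 18.9 and 17.99 CPM treated. In MUT they overlapped as well, at 21.4, 26.2 and 20.7 CPM untreated and 26.1, 25.7 and 24.7 CPM treated. The log2 fold changes in EV, WT and MUT were -0.38 (SE 0.101), -0.18 (SE 0.0989) and 0.16 (SE 0.0968), with adjusted p of 0.00396, 0.132 and 0.156 in edgeR. WT passed without untreated WT replicate 3 (adjusted p 0.0495) and with the authors' library factors (0.0421), and MUT passed, with a rise of 0.24, without untreated MUT replicate 2 (0.0382), all in edgeR. BCL2L2 (chromosome 14, 23298790 to 23311760, plus strand), the guardian BCL-W, stayed between 38.0 and 52.8 CPM in all 18 libraries, with log2 fold changes of -0.02, 0.03 and 0.11 that did not pass the threshold, although without untreated MUT replicate 1 the last was 0.24 (adjusted p 0.0325 in edgeR). It overlaps the readthrough gene BCL2L2-PABPN1, whose group means were at most 1.20 CPM, and reads of the pair may have been split between them.

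Of the effectors, BAX passed the threshold in no line and BAK1 in MUT. BAX (chromosome 19, 48954815 to 48961799, plus strand) had group means between 190.1 ± 28.5 and 226 ± 6.41 CPM (SD, n = 3) and log2 fold changes of -0.07, 0.14 and -0.10 in EV, WT and MUT, none past the threshold. In WT its treated libraries, at 219, 230.3 and 229 CPM, lay above the untreated ones, at 199, 211 and 205 CPM, and a fit of the WT libraries alone called the rise (adjusted p 0.00247 in edgeR, the alternatives spanning 0.00247 to 0.667). Its untreated MUT replicates gave 215, 154 and 269.9 CPM, wider apart than in any other group, and without replicate 2 its change in MUT was -0.33 (adjusted p 0.0144 in edgeR). BAK1 (chromosome 6, 33572547 to 33580294, minus strand) was called lower in MUT alone, at -0.31 (SE 0.103, adjusted p 0.0143 in edgeR). There it went from 61.9, 85.7 and 84.8 CPM to 61.3, 64.0 and 61.5 CPM, and the groups overlapped. A fit of the MUT libraries alone did not call the fall (adjusted p 0.0642 in edgeR). The high values were those of replicates 2 and 3 of untreated MUT. Without both of them the change was -0.02 (adjusted p 0.910 in edgeR), with replicate 1 as the one untreated library and its spread taken from the other groups. In EV and WT the BAK1 changes were 0.07 and 0.19, not past the threshold. The WT libraries did not overlap, and the WT rise was called without replicates 2 and 3 of untreated MUT (adjusted p 0.0304 in edgeR) and in a fit of the WT libraries alone (0.00431), the alternatives spanning 0.00431 to 0.340.

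Of the BH3-only members, BCL2L11 and BID passed the threshold in at least 1 line, and BBC3 and PMAIP1 in none. BCL2L11 (chromosome 2, 111119378 to 111168448, plus strand) encodes BIM, which binds all guardians. It fell in EV from 30.1, 28.9 and 30.1 to 24.4, 24.6 and 24.3 CPM. It fell in WT from 29.0, 26.9 and 26.9 to 21.8, 18.9 and 21.0 CPM. In MUT the treated libraries, at 35.9, 27.8 and 30.5 CPM, overlapped the untreated ones, at 33.8, 29.9 and 28.6 CPM. The log2 fold changes in EV, WT and MUT were -0.28 (SE 0.0924), -0.43 (SE 0.0929) and 0.03 (SE 0.0905), with adjusted p of 0.0159, 7.92e-04 and 0.808 in edgeR.

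BID (chromosome 22, 17734138 to 17774771, minus strand) is the BH3-only protein that caspase-8 cleaves, and so links death receptors to the mitochondria. It rose in WT from 25.3, 24.4 and 23.2 to 32.0, 33.3 and 28.0 CPM, without overlap, by 0.35 on the log2 scale (SE 0.0985, adjusted p 0.00553 in edgeR). In EV it stayed between 22.1 and 26.1 CPM. In MUT the untreated libraries gave 30.7, 26.0 and 36.1 CPM and the treated ones 29.4, 29.5 and 30.2 CPM. Neither of those changes, -0.10 in EV and -0.06 in MUT, passed the threshold.

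The damage-inducible genes BBC3 and PMAIP1 did not pass the threshold in any line. BBC3 (chromosome 19, 47220822 to 47232767, minus strand), which encodes PUMA, had log2 fold changes of 0.09 (SE 0.0971), 0.02 (SE 0.0957) and 0.08 (SE 0.0962). Its group means ran from 36.4 ± 0.656 to 41.9 ± 2.37 CPM (SD, n = 3). PMAIP1 (chromosome 18, 59899948 to 59904307, plus strand), which encodes the MCL1-binding NOXA, had -0.05 (SE 0.151), 0.03 (SE 0.151) and 0.25 (SE 0.151). The PMAIP1 change in MUT turned on single libraries. Untreated MUT gave 119, 72.2 and 142 CPM and treated MUT 119, 133 and 145 CPM, and without untreated replicate 3 the change was 0.44 with an adjusted p of 0.00881 in edgeR, the alternatives spanning 0.00881 to 0.891.

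**Figure D3:**
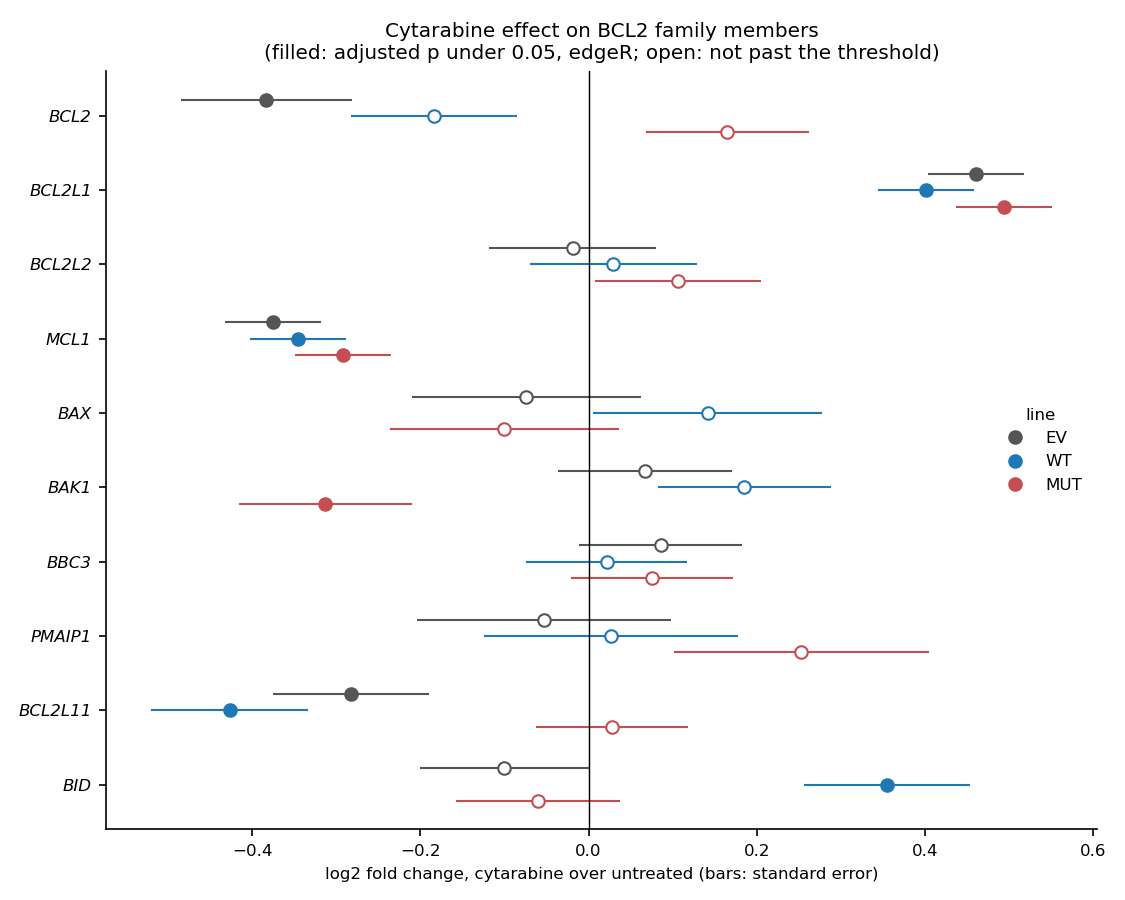
Log2 fold change of each member, cytarabine over untreated (horizontal axis; bars are standard errors), in EV, WT and MUT; filled points have an adjusted p under 0.05 in edgeR. BCL2L1 lies between 0.40 and 0.49 and MCL1 between -0.38 and -0.29 in the 3 lines, while BCL2, BCL2L11, BID and BAK1 are called in some lines only.

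Whether cytarabine acted differently on a member in different lines was tested as the difference between its effects. None of the 30 differences passed the threshold in edgeR, 8 had an unadjusted p under 0.05, and DESeq2 called 3. Those 8 were 3 for MUT minus EV, 4 for MUT minus WT and 1 for WT minus EV. Of the 18226 tested genes 2882, 2810 and 1815 had an unadjusted p under 0.05 in edgeR, in that order. Over all genes 0.214% passed the threshold between MUT and EV, 1.00% between MUT and WT and 0.285% between WT and EV. These were 39, 183 and 52 genes, and fits that left out 1 library gave 8 to 666, 38 to 810 and 12 to 53. For BCL2L1 the differences were 0.03 (SE 0.0810) for MUT minus EV, 0.09 (SE 0.0807) for MUT minus WT and -0.06 (SE 0.0808) for WT minus EV. For MCL1 they were 0.08, 0.05 and 0.03 with SE of 0.0810 to 0.0811.

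The largest of the 30 differences was that of BCL2 for MUT minus EV, at 0.55 (SE 0.140). Its adjusted p was 0.102 in edgeR and 0.0325 in DESeq2, and in edgeR without replicate 2 of untreated MUT it was 0.0327, the alternatives spanning 0.0325 to 0.320. For BCL2L11 the difference was 0.45 (SE 0.130, adjusted p 0.0944 in edgeR) for MUT minus WT and 0.31 for MUT minus EV (SE 0.129, adjusted p 0.253 in edgeR). BAK1 at -0.50 (SE 0.145) and BID at -0.42 (SE 0.139) for MUT minus WT, with adjusted p of 0.103 and 0.147 in edgeR, were the other DESeq2 calls (0.0166 and 0.0384). The call in 1 line and not in another therefore does not show that the response of BCL2, BCL2L11, BAK1 or BID differed between lines. For BAK1 the difference for MUT minus WT was -0.20 with replicates 2 and 3 of untreated MUT both left out.

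Each construct was carried by a single line, so an effect of the construct cannot be told apart from other differences between lines. The p-values between lines measure the spread between replicates within a line. DNMT3A RNA itself was 3.42-fold higher in untreated MUT than in untreated WT. Between the lines themselves, BCL2L1 was the member that differed most before treatment. It was higher in WT than in EV by 0.56 (SE 0.0575, adjusted p 1.64e-06 in edgeR), a 1.48-fold difference, and lower in MUT than in WT, with a log2 difference of -0.42 (SE 0.0573, adjusted p 4.17e-05 in edgeR). Both calls held under all 14 alternatives, and the libraries did not overlap. Among the members 1 was higher and 0 lower in untreated WT than EV, against 4.30% and 7.36% of all genes. For untreated MUT against WT 1 was higher and 1 lower, against 11.7% and 9.54% of all genes. For untreated MUT against EV 2 were higher and 0 lower, against 9.88% and 10.0% of all genes.

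Those 2 were BAK1 at 0.32 (SE 0.104, adjusted p 0.0383) and BID at 0.30 (SE 0.0996, adjusted p 0.0400), both in edgeR. Both overlapped EV in their libraries. Leaving out any 1 of the 3 untreated EV replicates ended both calls, and so did leaving out untreated MUT replicate 3 or both replicates 2 and 3. A fit of untreated MUT and EV alone also ended both (adjusted p 0.169 for BAK1 and 0.195 for BID in edgeR). Leaving out untreated MUT replicate 2 ended that of BAK1, and leaving out replicate 1 that of BID. Without replicates 2 and 3 the log2 differences were 0.01 for BAK1 (adjusted p 0.977 in edgeR) and 0.30 for BID (adjusted p 0.0699 in edgeR). BID was also higher in untreated MUT than in WT, at 0.35 (SE 0.0991, adjusted p 0.0161 in edgeR), without overlap. That call was lost without untreated WT replicate 3 (adjusted p 0.0704 in edgeR) and in a fit of untreated MUT and WT alone (0.141 in edgeR).

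After cytarabine the MUT line held more BCL2 and BCL2L11 RNA than either other line. BCL2 in treated MUT, at 25.5 ± 0.742 CPM, lay above WT at 17.97 ± 0.894 and EV at 14.5 ± 0.561 (SD, n = 3) without overlap. The log2 differences were 0.81 (SE 0.0990, adjusted p 2.33e-05 in edgeR) against EV, a 1.75-fold excess, and 0.50 (SE 0.0974, adjusted p 0.00105 in edgeR) against WT, a 1.42-fold excess. BCL2L11 was higher in treated MUT by 0.61 against WT (SE 0.0919, adjusted p 1.00e-04 in edgeR) and by 0.36 against EV (SE 0.0911, adjusted p 0.0117 in edgeR). Without treated MUT replicate 1, which held the highest BCL2L11 value, the difference against EV was 0.25 with an adjusted p of 0.0851 in edgeR, the alternatives spanning 0.00417 to 0.0851. A guardian and a BH3-only gene were therefore both higher in that line under the drug. Before treatment BCL2 was 0.26 above EV without overlap (adjusted p 0.0693 in edgeR), which 5 of 14 alternatives called (0.0225 to 0.343 over all of them), and BCL2L11 was 0.05 above EV (adjusted p 0.743 in edgeR), which none of the 14 called.

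BCL2L1 kept its order of lines after treatment. It was higher in WT than EV by 0.50 (SE 0.0571, adjusted p 5.43e-06 in edgeR) and lower in MUT than WT, with a log2 difference of -0.33 (SE 0.0570, adjusted p 4.22e-04 in edgeR). Against EV treated MUT was higher by 0.18 (SE 0.0571, adjusted p 0.0463 in edgeR), which 11 of 14 alternatives did not call. Ordered by group mean, BCL2L1 ran from treated WT at 435 ± 9.40 CPM through treated MUT (347 ± 0.503), untreated WT (329.8 ± 6.01), treated EV (307 ± 4.66) and untreated MUT (246 ± 16.3) to untreated EV (223 ± 6.75 CPM, SD, n = 3). No neighbours in this order overlapped. The closest were untreated MUT, from 231 CPM, and untreated EV, up to 230.0 CPM.

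BID was higher than in EV in both other treated lines, by 0.40 in WT (SE 0.0986, adjusted p 0.00792 in edgeR) and 0.34 in MUT (SE 0.0984, adjusted p 0.0263 in edgeR). Leaving out treated WT replicate 2 brought the first to an adjusted p of 0.0517 in edgeR, and leaving out treated EV replicate 1 or 2 or any treated MUT replicate ended the second (adjusted p 0.0633 to 0.0970 in edgeR). BCL2 was higher in treated WT than EV by 0.31 (SE 0.101, adjusted p 0.0432 in edgeR), a call that was lost in each of the 6 fits that left out 1 of the compared libraries. BCL2L11 was lower in treated WT than EV without overlap, with a log2 difference of -0.25 (SE 0.0933, adjusted p 0.0763 in edgeR). It did not pass the threshold, and 4 of 14 alternatives called it lower, the replicate block among them (0.0422 in edgeR). MCL1, BCL2L2, BBC3 and PMAIP1 did not pass the threshold between any lines after treatment, here or under any of the 14 alternatives. BAK1 was lower in treated MUT than WT by a log2 difference of -0.29 without overlap, at an adjusted p of 0.0538 in edgeR, and 5 of 14 alternatives called it (0.00122 to 0.178). BAX did not pass either, and 1 of 14 alternatives called it for treated MUT against WT (-0.18, adjusted p 0.0139 when fitted on those groups alone) and 1 for treated WT against EV (0.24, adjusted p 0.0352 without untreated MUT replicates 2 and 3), both in edgeR. The latter setting also called BAK1 for treated WT against EV (adjusted p 0.0267 in edgeR). In treated cells 4 members were higher and 0 lower in MUT than EV, against 6.85% and 7.13% of all genes. For MUT against WT 2 were higher and 1 lower, against 10.4% and 9.48%. For WT against EV 3 were higher and 0 lower, against 7.41% and 9.12%. The 3 comparisons share their libraries and do not add up as separate evidence.

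**Figure D4:**
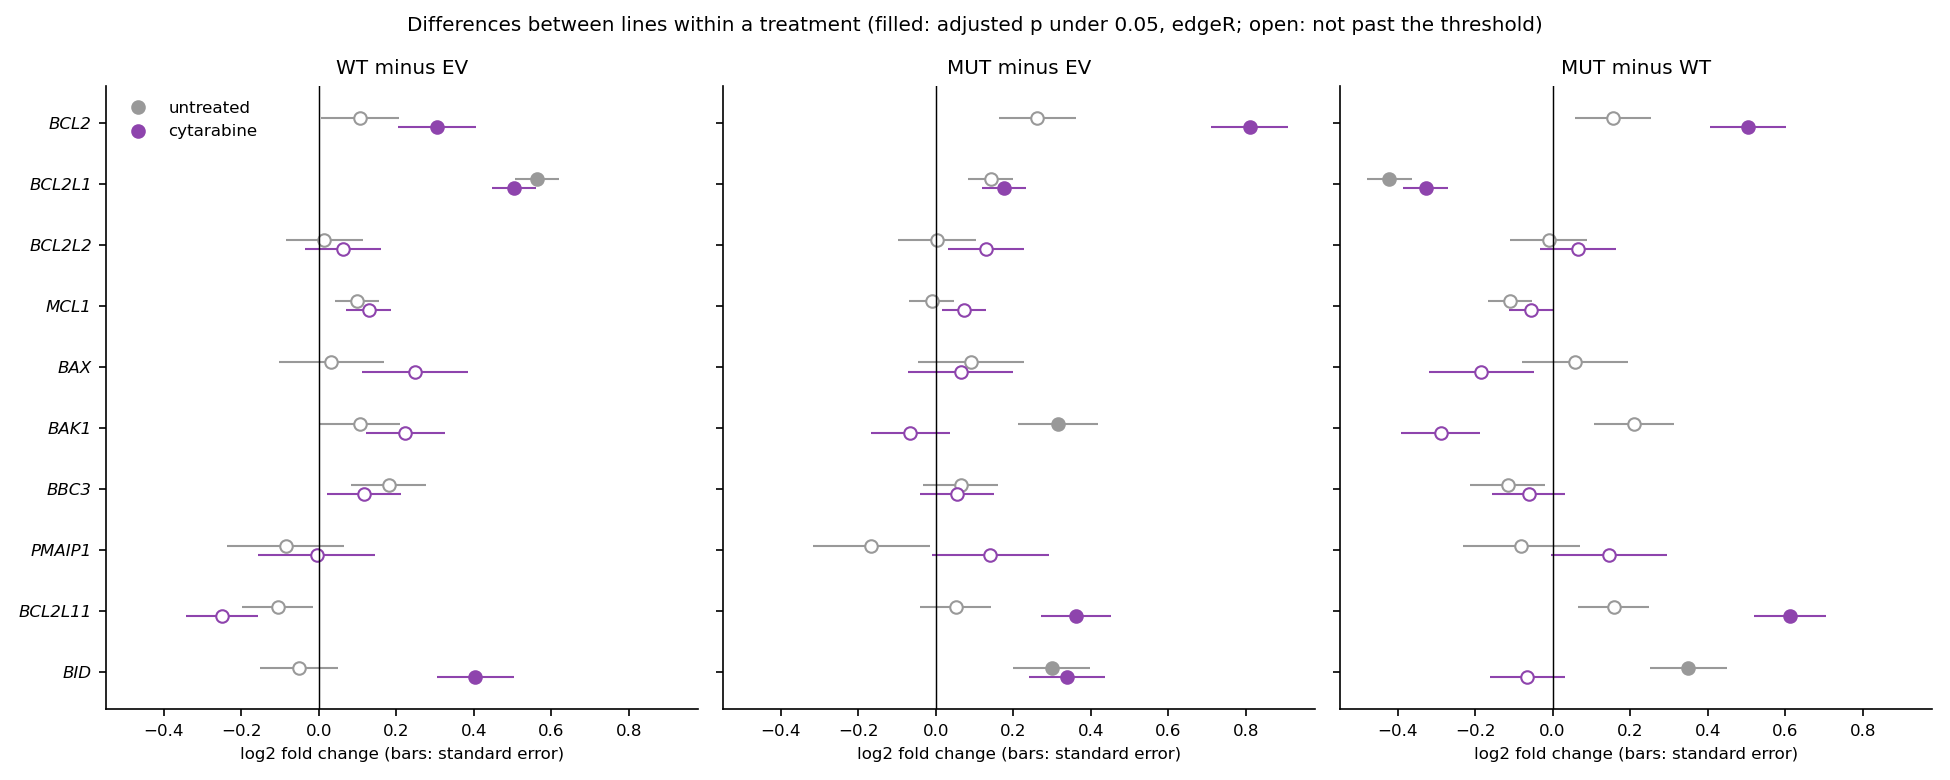
Log2 difference of each member between lines (horizontal axis; bars are standard errors), untreated in grey and after cytarabine in purple; filled points have an adjusted p under 0.05 in edgeR. BCL2L1 is higher in WT than in the other lines in both states, and BCL2 and BCL2L11 in treated MUT lie 0.36 to 0.81 above the other lines.

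Some members varied together over the 18 libraries. Pearson's r of log2 CPM was 0.72 for BAX and BBC3, 0.59 for BCL2 and BCL2L11 and -0.65 for BCL2L1 and BCL2L11. The libraries share treatment, line and the spread of untreated MUT, so these values describe the libraries only. Among 13672 genes, the gene most like MCL1 was THBS1 (r 0.988) and that most like BCL2L1 was OSBP2 (r 0.960). For the others these were PIGK for PMAIP1 (0.946), PPP1R15A for BCL2L2 (0.920), MAML3 for BCL2L11 (0.919), WDR62 for BCL2 (0.906), CENPU for BID (0.880), PDIA3 for BBC3 (0.878), MRPL34 for BAX (0.875) and NANS for BAK1 (0.821).

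Most of the listed genes of the DNA damage response rose while BBC3, PMAIP1 and BAX did not pass the test. Of 11 such genes 7 rose in EV and 9 in each other line, and the remaining genes did not pass the threshold in edgeR. Beside this list and those that follow, 26.1% of all tested genes rose and 22.9% fell in EV. In WT 26.3% rose and 22.7% fell, and in MUT 30.4% and 25.9%. No list was tested against these shares. The median log2 fold changes were 0.43, 0.78 and 0.58. TP53INP1, a stress-induced nuclear protein, stood at 21.6 ± 1.55, 24.5 ± 1.97 and 17.3 ± 1.57 CPM untreated and at 53.6 ± 6.92, 62.6 ± 2.73 and 55.6 ± 2.27 CPM treated (SD, n = 3). The cell cycle inhibitor CDKN1A went from 253 ± 20.5 to 663 ± 2.73 CPM in MUT, and FDXR, a mitochondrial reductase, rose by 1.01, 1.22 and 1.00 log2 units. MDM2, a ubiquitin ligase, rose by 0.43, 0.81 and 0.78. Each value passed the edgeR threshold.

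Of the death receptor arm that reaches the mitochondria through BID, 9 of 10 listed genes were tested, with 4 up and 3 down in EV, 4 up and 1 down in WT, and 3 up and 2 down in MUT. CASP10, an initiator caspase close to CASP8, stood at 1.37 ± 0.187, 1.05 ± 0.0605 and 1.12 ± 0.462 CPM untreated and rose to 9.70 ± 2.05, 8.70 ± 1.17 and 7.84 ± 0.411 CPM (SD, n = 3). The receptor FAS rose by 0.57, 1.04 and 0.86 log2 units, while its adaptor FADD fell by 0.39, 0.31 and 0.49. The receptor and 1 initiator caspase thus rose as the adaptor fell. CASP8, which cleaves BID, did not pass the threshold in any line, with group means of 40.2 to 49.1 CPM.

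Downstream of the mitochondria, 3 of 15 apoptosome, caspase and inhibitor genes rose and 6 fell in EV and in MUT, and 5 rose and 5 fell in WT. CYCS, cytochrome c, stood at 456 ± 12.1, 445 ± 22.4 and 511 ± 52.1 CPM untreated and fell to 269 ± 7.27, 255 ± 1.96 and 236 ± 5.78 CPM (SD, n = 3). APAF1, the scaffold of the apoptosome, rose by 0.73, 0.91 and 0.97 log2 units. BIRC3, of the inhibitor of apoptosis family, fell by 0.99, 0.75 and 0.80. So CYCS and APAF1, the 2 partners that assemble the apoptosome, moved in opposite directions at the RNA level. Of the rest of the list, CASP6 and CASP9 were called higher in all 3 lines, and DIABLO, BIRC5 and AIFM1 lower.

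**Figure D5:**
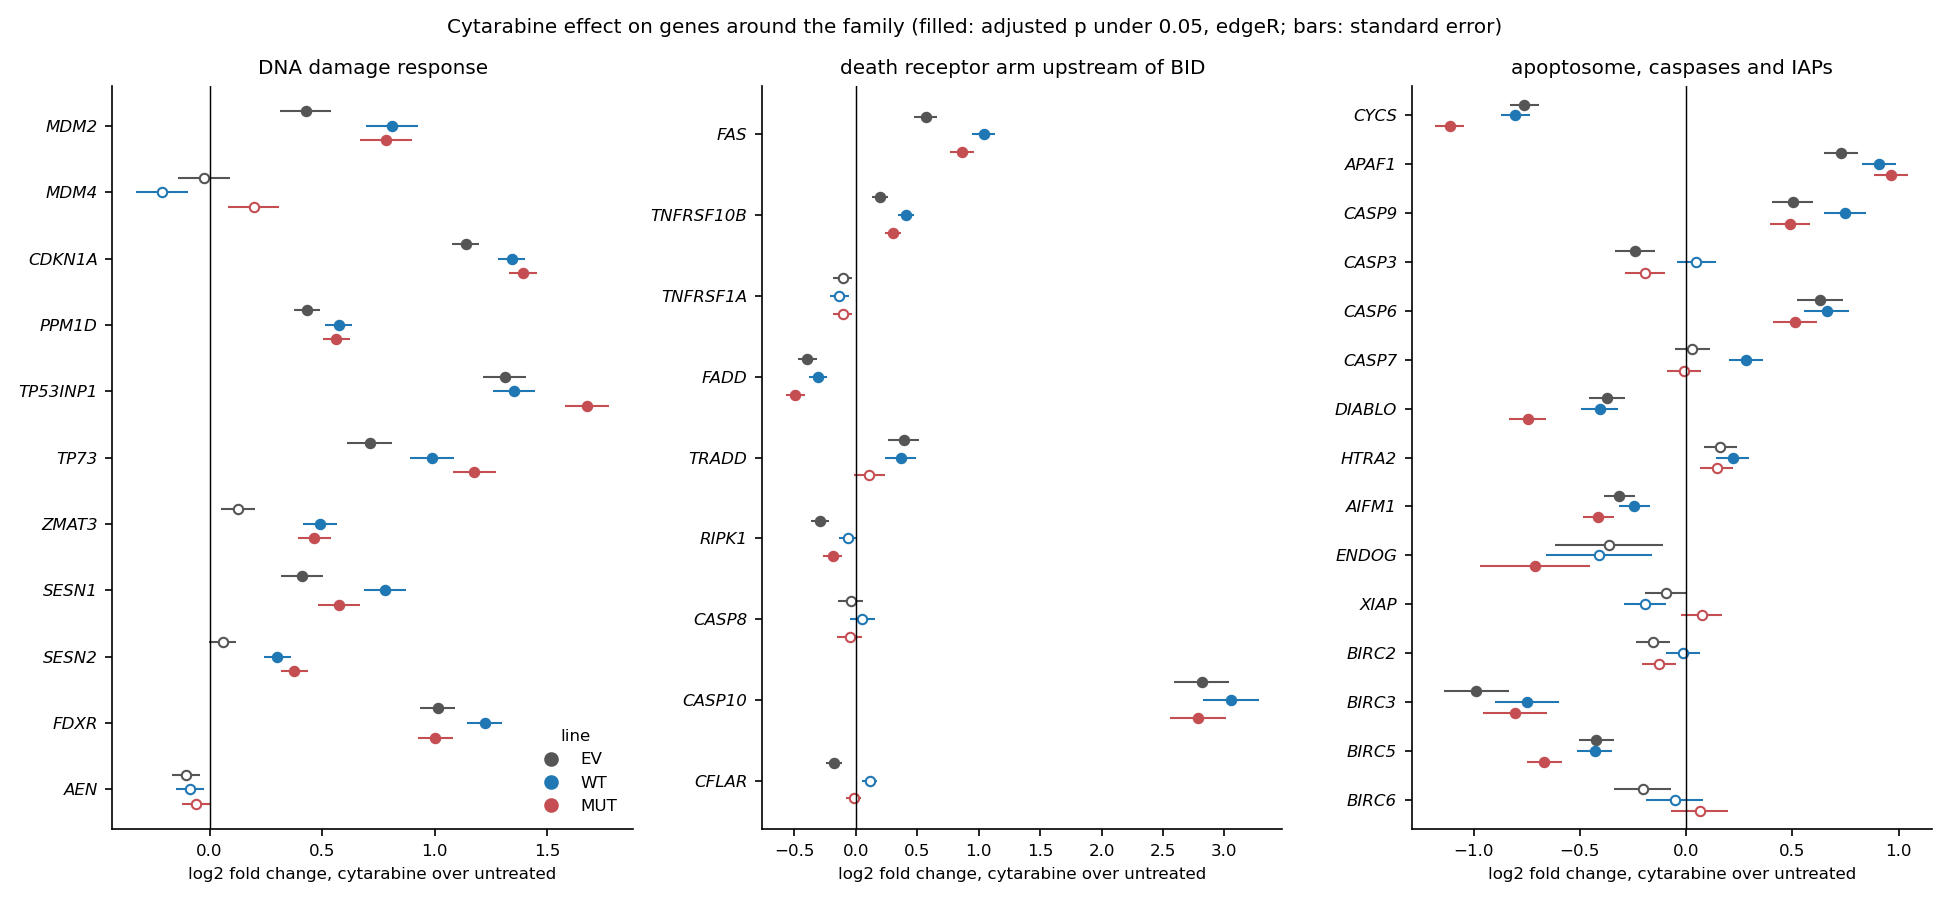
Log2 fold change, cytarabine over untreated (horizontal axes, differently scaled; bars are standard errors), for genes of the DNA damage response, the death receptor arm and the apoptosome, caspases and inhibitors in EV, WT and MUT; filled points have an adjusted p under 0.05 in edgeR. CASP10 rises by 2.78 to 3.05, CDKN1A by 1.14 to 1.39, and CYCS lies between -1.11 and -0.76.

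Of 11 further BCL2 family genes 8 were tested, with 3 up and 1 down in EV, 1 up and 1 down in WT, and 2 up and 3 down in MUT. BOK, a BAX-like effector, fell in every line, by 0.41, 0.56 and 0.59 log2 units. Of 9 stress and FOXO regulators that act on BH3-only genes 2 were up and 4 down in EV, and 3 up and 2 down in each other line. FOXO1, a transcription factor known to drive BCL2L11, rose by 0.76, 0.64 and 1.20 log2 units, and BCL2L11 fell in EV and WT. FOXO3, of the same list, went from 66.1, 59.7 and 71.6 to 49.3, 65.8 and 58.3 CPM in EV. In WT it went from 59.7, 62.5 and 63.1 to 55.5, 53.7 and 54.4 CPM. In MUT it went from 67.7, 77.3 and 59.6 to 68.7, 70.7 and 73.9 CPM. A link of either gene to BCL2L11 was not tested. The transcription factor ATF3 rose by 0.80, 0.84 and 0.75, and JUN fell by 0.51, 0.59 and 0.37. CHAC1, a target of the integrated stress response, differed in its effect between WT and EV by 1.17 (SE 0.176, adjusted p 0.00538 in edgeR), with 13.9 ± 0.909 CPM untreated and 25.1 ± 2.35 CPM treated in WT against 16.8 ± 2.04 and 13.5 ± 0.715 CPM in EV (SD, n = 3). Of 5 genes of MCL1 and PMAIP1 protein turnover 2 were down in EV, 1 up and 1 down in WT, and 2 up and 1 down in MUT. USP9X, the deubiquitinase that stabilises MCL1 protein, fell by 0.44, 0.39 and 0.35 log2 units. HUWE1, a ubiquitin ligase of the same list, went from 373, 388 and 412 to 274, 345 and 286 CPM in EV. In WT it went from 353, 333 and 347 to 276, 281 and 268 CPM, and in MUT from 339.5, 446 and 192 to 289, 287 and 276 CPM. Protein was not measured in these libraries.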

How the data were processed

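RNA of 18 U2OS libraries was compared in 6 groups of 3, taken from the sample titles. Per the labels' protocols total RNA was extracted with a Direct-zol kit and libraries were made with a NEBNext Ultra kit. The submitters' processing notes name CASAVA, STAR 2.6.1d and hg38, without their roles. The counting tool and its use of strand are not given in the sources used here. The authors deposited expected (estimated) counts per gene symbol, of which 70.4% were whole numbers, and a second table of normalized signal for 19591 genes, which equalled 1 plus a library factor times the estimated count within a relative deviation of 7.36e-06. That second table served only to recover the authors' library factors.

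The rounded counts entered edgeR 4.0.16 (R 4.3.3), with filterByExpr, TMM factors and 1 quasi-likelihood model of all 6 group means. P-values were adjusted by the method of Benjamini and Hochberg over 18226 genes and read against 0.05. SE is the absolute log2 fold change over the square root of F. CPM uses TMM-scaled library sizes, and log2 CPM adds a prior count of 2. Length is the merged exonic length in GENCODE 44, and gene positions are those of the deposited table. Promoter sequences are from RefSeq (GRCh38.p14). The fit was tested on simulated data with the same spread in every group, for the cytarabine effect in EV only. That does not cover the unequal spread of the real groups. Replicates are biological triplicates from plating, per the labels, so p-values measure the spread between these samples, which may be in part technical.

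The members and gene lists were chosen with earlier results of these data known. Named were all members, DNMT3A, the 3 genes of each list with the largest change called in the same direction in all 3 lines, list genes called in a difference between effects, MDM2 and CDKN1A, and for each member the gene with the highest r among genes of mean log2 CPM of at least 1. CASP6, CASP8, CASP9, DIABLO, BIRC5, AIFM1, HUWE1, FOXO3, SPARC, RUNX2, ALPL, EPCAM, PTPRC, PECAM1 and BCL2L2-PABPN1 were named beyond that rule. TNFRSF10A and BCL2L10 were not analysed here, and 1 further gene is not reported here. Replicates differed by more than sampling noise in every pair (chi-square per degree of freedom 2.45 to 46.8), and all were kept. Alternatives were other library factors, other filters, DESeq2 1.42.0, a replicate block, fits of only the groups compared, and single libraries left out. Leaving out replicates 2 and 3 of untreated MUT together was added after seeing the data.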

Additional observations from a re-analysis of the deposited data

How the results depend on the processing

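The counts of members called (4, 4 and 3 for cytarabine in EV, WT and MUT) were 4, 4 to 5 and 3 to 5 when 1 library was left out, the 5 in MUT coming without untreated MUT replicate 2, which added BAX and BCL2. With replicates 2 and 3 of untreated MUT both left out they were 4, 5 and 2. No called difference changed direction under any alternative. For the differences between effects the count of 0 became 1 (MUT minus EV) and 2 (MUT minus WT) in DESeq2, and 1 (WT minus EV, BID) without untreated MUT replicates 2 and 3. Leaving out 1 library gave 0 to 1 for MUT minus EV (1 without untreated MUT replicate 1 or 2), 0 to 2 for MUT minus WT (2 without replicate 1, 1 without replicate 2) and 0 for WT minus EV.

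For untreated MUT against EV the count of 2 was 4 with DESeq2 factors, 4 at a mean of at least 50 counts, 4 in DESeq2, 0 when fitted on the 2 groups alone, 0 without untreated MUT replicates 2 and 3, and 0 to 2 when 1 library was left out, 0 without any 1 of the untreated EV libraries. Fitted on the 2 groups alone, cytarabine in WT gave 6 in place of 4 (BAX and BAK1 added), untreated MUT against WT gave 1 in place of 2, untreated WT against EV 3 in place of 1, and treated MUT against WT 5 in place of 3. Leaving out 1 library gave 1 to 3 for untreated MUT against WT, the 1 coming without untreated WT replicate 3, 1 to 3 in place of 4 for treated MUT against EV (1 without treated MUT replicate 1), and 1 to 2 in place of 3 for treated WT against EV (1 without treated WT replicate 2). Without untreated MUT replicates 2 and 3 treated WT against EV gave 6. The causes of these changes were not tested, and the smaller fits also held fewer samples.

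Same-numbered libraries did not deviate together (45 pairs, median r -0.02, 7 pairs above 0.1, and 8 of 18 libraries closest to their own number). With a replicate block untreated MUT against EV had 1 call in place of 2, treated MUT against EV 3 in place of 4 and treated WT against EV 4 in place of 3. Over all genes, the differences between effects numbered 39, 183 and 52 (MUT minus EV, MUT minus WT, WT minus EV) and 554, 803 and 138 in DESeq2, 1, 51 and 278 when fitted on their own groups, and 128 and 375 for the first 2 at a mean of at least 50 counts. MUT minus EV gave 25 with the block, MUT minus WT 278 with DESeq2 factors, and WT minus EV 34 without a filter and 32 with the authors' factors. Lines fitted in pairs gave 935, 1171 and 5101 calls untreated in place of 3632, 3872 and 2125, and treated MUT against WT 6113 in place of 3616. Leaving out 1 library gave 8 to 666 for MUT minus EV (666, 335 and 101 without untreated MUT replicate 1, 2 or 3), 38 to 810 for MUT minus WT (810, 674 and 337 likewise) and 12 to 53 for WT minus EV. With DESeq2 factors the share of higher calls went from 71.8% to 48.1% (MUT minus EV) and from 50.8% to 29.1% (MUT minus WT) for the effects, and from 55.1% to 65.4% for untreated MUT against WT. Estimated counts of the scarcest member reached down to 242, and the part of depth in the precision was not tested.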

Other observations

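Among BCL2 family genes outside the 10 members, the BH3-only genes BMF and HRK, both of low abundance, rose with cytarabine in EV and MUT and did not pass the threshold in WT. BMF, a BH3-only sensor of cell detachment, held 2.43 ± 0.475 CPM in untreated EV and 5.08 ± 0.358 CPM in treated EV. In MUT it held 2.67 ± 0.487 and 7.68 ± 1.10 CPM, and in WT 2.32 ± 0.962 and 2.34 ± 0.712 CPM (SD, n = 3). The log2 fold changes were 1.06 (SE 0.271, adjusted p 0.00301) in EV, 1.52 (SE 0.263, adjusted p 6.60e-05) in MUT and 0.01 (SE 0.282, adjusted p 0.979) in WT in edgeR. The difference between MUT and WT, 1.51, had an adjusted p of 0.0630 in edgeR and did not pass the threshold. HRK rose by 0.71 in EV and in MUT, and its change of 0.23 in WT did not pass. BIK was lower in WT (1.06 ± 0.316 CPM untreated) than in EV (6.73 ± 1.45 CPM) or MUT (8.84 ± 2.20 CPM). The guardian BCL2A1 rose in WT, from 0.753 ± 0.143 to 2.00 ± 0.330 CPM. BMF, HRK, BIK and BCL2A1 were named after their values were seen.

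The ratio of BAX to BCL2 per kb of exon was also formed after the values were seen. It ran from 34.5 to 43.1 in the treated MUT libraries, from 50.8 to 73.4 in treated EV and from 59.5 to 62.4 in treated WT. Untreated MUT spanned 28.7 to 63.6, the widest range of a group, and its lowest and highest values were those of replicates 2 and 3. COL1A1, a marker of the osteoblast lineage, rose in EV and MUT by 0.45 and 0.71 on the log2 scale, and its difference between MUT and WT was 0.62 (SE 0.144, adjusted p 0.0446 in edgeR). COL1A2 rose by 2.20, 2.06 and 1.88 and VIM fell by 0.90, 0.86 and 0.97 in EV, WT and MUT.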
